A study of Mus musculus with 6 samples.

Results

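A set of 10 genes of the ATF4 and CHOP stress pathway was followed through the differentiation of a mouse neuroblastoma line: Atf4, Ddit3, Atf3, Atf5, Cebpb, Cebpg, Trib3, Ppp1r15a, Chac1 and Sesn2. The members were taken by gene symbol from a deposited table of 40413 genes, and all 10 were found, 1 row each. RNA sequencing covered 6 libraries of N2A-A5 cells, a derivative of the Neuro-2a line that the labels call acceptor cells. The 3 libraries at 96 h came from cells seeded in differentiation medium with 1% fetal bovine serum and 10 µM retinoic acid, without blasticidin. The 3 libraries at 0 h came from undifferentiated cells in DMEM with 10% fetal bovine serum and 10 µg/mL blasticidin. All cells are of 1 line, and serum, retinoic acid, blasticidin and days in culture changed together, so their effects cannot be told apart. The design text calls the 3 libraries of a group biological replicates.

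ATF4 is a basic leucine zipper (bZIP) transcription factor at the centre of the integrated stress response. Kinases that sense unfolded protein in the endoplasmic reticulum (ER), lack of amino acids, lack of haem or double-stranded RNA phosphorylate the initiation factor eIF2, which lowers general translation while upstream reading frames let Atf4 mRNA be translated more. ATF4 then switches on amino acid synthesis and transport genes, and also CHOP (Ddit3), further bZIP partners and a set of feedback genes that restore translation or restrain ATF4. Control of ATF4 is to a large part translational, so mRNA levels alone do not measure the protein.

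Totals ran from 16.8 M to 20.9 M estimated counts per library (M for mega) and overlapped between groups. The libraries differed in makeup: the predicted gene Gm26917 averaged 30.5% ± 1.6 (SD) of the 96 h libraries, against 20.2% ± 2.2 of the 0 h libraries. Every ± beside a mean is an SD over 3 libraries. All 10 members also passed when Gm26917 and the structural RNA genes were left out. Values are depth-scaled counts (CPM) scaled with TMM factors, which set the typical gene to no change. Scaling by library size alone lowers the median log2 fold change of all tested genes to -0.22, against 0.03 with TMM. Summed markers of sympathetic neuroblastoma were present in every library, at 431 to 460 CPM at 96 h and 648 to 683 CPM at 0 h (per total count, without TMM). Of these 9 markers, 8 were tested with TMM scaling. At 96 h, 6 were called lower, 0 higher and 2 did not pass (edgeR adjusted p under 0.05). Of all tested genes, 28.8% were called lower and 28.7% higher. Of the other cell types, 8 fibroblast markers summed to 16.6 to 18.2 CPM at 96 h and 6.70 to 7.09 CPM at 0 h with Col3a1 and Lum at 0 throughout. The 8 Schwann cell and glial markers summed to 13.1 to 15.7 CPM at 96 h and 11.5 to 13.1 CPM at 0 h. The 8 leukocyte markers summed to 2.32 to 2.98 CPM at 96 h and 1.69 to 2.39 CPM at 0 h, with Aif1 and Lyz2 among those at 0. The part of these cells in the results was not tested.

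All 10 members rose at 96 h, against a background of 28.7% of the 13705 tested genes called higher (edgeR quasi-likelihood test, Benjamini-Hochberg adjusted p under 0.05 over all tested genes). For all 10 the lowest library at 96 h lay above the highest at 0 h, which held for 32.4% of tested genes. By at least 2-fold, 9 of the 10 were called higher, against 11.7% of tested genes. The members, and the lists below, were chosen with earlier results of these data known. Their contrasts with all tested genes are therefore descriptions. The median log2 fold change of the members was 2.10 (4.28-fold), beside 0.03 over all tested genes. Together they took 0.214% ± 0.0037 of protein-coding counts at 96 h and 0.0554% ± 0.0019 at 0 h. In bulk RNA, a change in the number of expressing cells and a change in RNA per cell cannot be told apart.

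**Figure D1:**
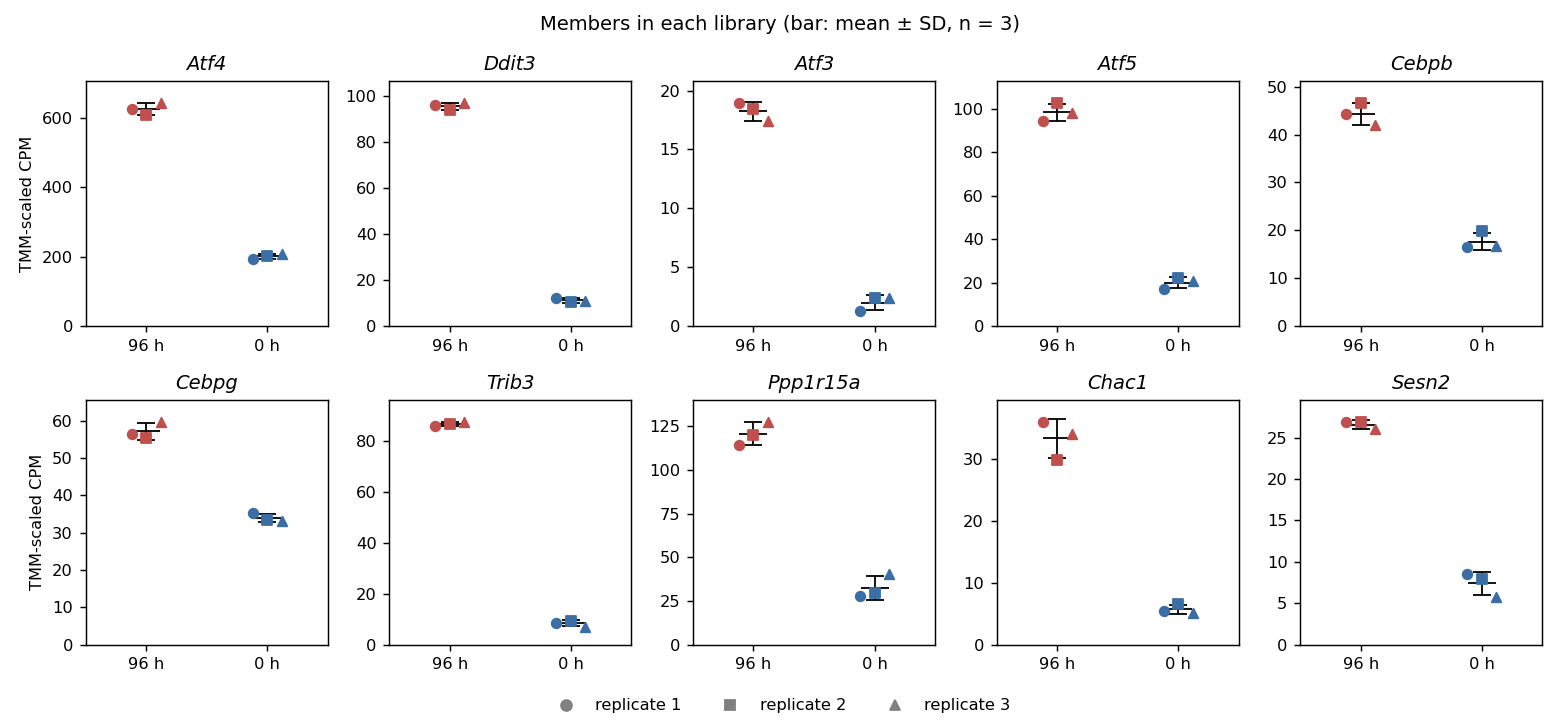
TMM-scaled CPM of each member in each library, with 96 h left of 0 h, 1 symbol per replicate number and a bar for the mean ± SD of 3 libraries. In every panel all 96 h libraries lie above all 0 h libraries; the gap is widest in proportion for Trib3 (10.3-fold) and narrowest for Cebpg (1.69-fold).

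Atf4 itself, the regulator at the head of the pathway, was the most abundant member. It had 627, 609 and 642 CPM at 96 h, against 194, 201 and 209 CPM at 0 h (replicates 1, 2 and 3, the order used throughout). The libraries of a group lay close together, and the difference was a log2 fold change of 1.64 ± 0.04 (SE, 3.11-fold, edgeR adjusted p = 6.44e-12). Ddit3 encodes CHOP, a partner of C/EBP proteins that is induced by ATF4 and linked to cell death under prolonged stress. It had 95.8, 93.9 and 96.7 CPM at 96 h, against 12.3, 10.3 and 10.7 CPM at 0 h. Its log2 fold change was 3.10 ± 0.07 (8.59-fold, edgeR adjusted p = 2.91e-12), and 98.5% of tested genes had a smaller one.

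Atf3, a CREB-family bZIP factor induced by many stresses, was the scarcest of the transcription factors. It had 18.9, 18.4 and 17.4 CPM at 96 h, against 1.24, 2.34 and 2.35 CPM at 0 h. The 0 h library of replicate 1, with 24 estimated counts, was lower than the other two (55 and 45). Atf3 rose 9.13-fold (log2 fold change 3.19 ± 0.19, edgeR adjusted p = 9.93e-09), or 2.95 on the log2 scale without that library, and its SE was the widest of the members. Atf5, a close relative of ATF4 that is also controlled by upstream reading frames and acts in the mitochondrial stress response, had 94.6, 103 and 98.0 CPM at 96 h, against 17.0, 22.1 and 20.5 CPM at 0 h. Atf5 rose 4.94-fold (log2 fold change 2.30 ± 0.08, edgeR adjusted p = 9.69e-11).

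Both C/EBP members rose, with the smallest fold changes of the 10. C/EBP beta, the product of Cebpb, binds composite sites with ATF4 and also dimerises with CHOP. Cebpb had 44.2, 46.5 and 42.1 CPM at 96 h, against 16.4, 19.8 and 16.8 CPM at 0 h. That was a log2 fold change of 1.32 ± 0.08 (2.50-fold, edgeR adjusted p = 1.69e-08). C/EBP gamma, from Cebpg, is a dimer partner of ATF4 with no strong activation domain of its own. Cebpg had 56.3, 55.3 and 59.7 CPM at 96 h, against 35.2, 33.3 and 33.2 CPM at 0 h. Its change was the smallest among the members (log2 fold change 0.75 ± 0.06, 1.69-fold, edgeR adjusted p = 2.12e-07), with 81.9% of tested genes below it, and in a test against a 1.5-fold change its adjusted p was 0.0144.

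Trib3 had the largest fold change among the members. It encodes a pseudokinase that binds ATF4 and CHOP and restrains their activity, and it is itself a target of both. Trib3 had 85.9, 86.6 and 87.4 CPM at 96 h, against 8.62, 9.33 and 7.05 CPM at 0 h. The 96 h libraries were nearly equal, and the log2 fold change was 3.37 ± 0.09 (10.3-fold, edgeR adjusted p = 4.02e-12). By fold change it ranked 160 from the top of the 13705 tested genes.

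Ppp1r15a encodes GADD34, the inducible subunit that brings protein phosphatase 1 to phosphorylated eIF2 and so closes the loop. Its levels were 114, 120 and 128 CPM at 96 h, against 27.6, 29.7 and 40.4 CPM at 0 h. The 0 h library of replicate 3 stood above the other two, and Ppp1r15a rose 3.71-fold (log2 fold change 1.89 ± 0.11, edgeR adjusted p = 5.88e-09), or 2.06 on the log2 scale without that library. Chac1 encodes an enzyme that breaks down glutathione. It had 36.0, 29.9 and 34.0 CPM at 96 h, against 5.42, 6.52 and 5.07 CPM at 0 h (log2 fold change 2.54 ± 0.11, 5.83-fold, edgeR adjusted p = 6.11e-10). Sesn2 encodes a leucine-binding protein that restrains the growth kinase complex mTORC1 through GATOR2. It had 26.9, 26.8 and 26.0 CPM at 96 h, against 8.47, 7.92 and 5.80 CPM at 0 h. Sesn2 rose 3.58-fold (log2 fold change 1.84 ± 0.12, edgeR adjusted p = 2.20e-08). The 0 h library of replicate 3 was thus the highest of its group for Ppp1r15a and the lowest for Chac1, Trib3 and Sesn2.

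**Figure D2:**
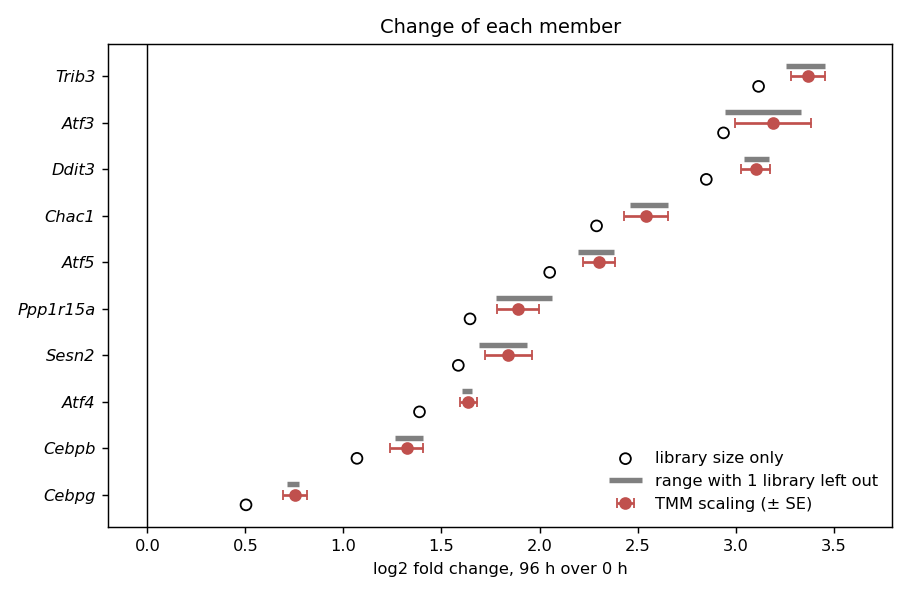
Log2 fold change of each member, 96 h over 0 h, with TMM scaling (filled points, bars ± SE), with library size only (open points) and as the range when any 1 library is left out (grey bars). All values lie above 0; library size only gives the lowest value for each member, from 0.50 for Cebpg to 3.12 for Trib3.

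Upstream sequence was examined because the members moved together. Sequences are the 250 bases before the annotated start from RefSeq on GRCm38.p6 (the counts were made on mm39), and matched 10 of 10 members (11 windows, since Atf5 has a pair of starts). The motifs searched on both strands were the core of the C/EBP-ATF response element, TGATGNAA, the variant TGACGCAA, the cyclic AMP response element TGACGTCA with its shorter core TGACGT (each full site also holds the core), and the CCAAT box. The 3 windows that held a match other than CCAAT are shown, with those matches in capitals.
Atf3 (chr1:191183334-191183583, minus strand): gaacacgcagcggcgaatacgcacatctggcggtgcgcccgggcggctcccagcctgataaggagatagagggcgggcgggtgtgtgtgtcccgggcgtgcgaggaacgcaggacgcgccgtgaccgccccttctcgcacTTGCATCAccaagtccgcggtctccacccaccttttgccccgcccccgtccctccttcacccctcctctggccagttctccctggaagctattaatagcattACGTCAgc
Chac1 (chr2:119350992-119351241, plus strand): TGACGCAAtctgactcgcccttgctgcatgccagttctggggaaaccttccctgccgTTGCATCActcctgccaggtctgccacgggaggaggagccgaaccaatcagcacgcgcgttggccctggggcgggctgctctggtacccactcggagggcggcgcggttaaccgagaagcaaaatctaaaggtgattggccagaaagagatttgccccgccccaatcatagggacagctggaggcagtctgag
Ppp1r15a (chr7:45526269-45526518, minus strand): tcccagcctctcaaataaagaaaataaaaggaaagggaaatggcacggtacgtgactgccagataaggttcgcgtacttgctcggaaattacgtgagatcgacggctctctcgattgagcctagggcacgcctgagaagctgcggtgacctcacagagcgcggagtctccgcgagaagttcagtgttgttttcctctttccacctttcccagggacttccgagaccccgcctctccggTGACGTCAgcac

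Atf3 and Chac1 carried the same TTGCATCA, the reverse complement of the response element core, 110 and 193 bases before the start. That core was in 3.45% of all 32851 windows of the same length. Chac1 also carried TGACGCAA at the far end of its window, 250 bases before the start, a motif in 0.438% of windows. Ppp1r15a carried a full TGACGTCA 12 bases before the start (1.55% of windows), and Atf3 the shorter core 8 bases before it (6.47% of windows). The CCAAT box was in windows of 6 members and in 33.8% of all windows. Trib3 and Cebpb, among the most and the least changed members, had none of these letters in their windows. The member windows were 54.4% to 81.6% G and C, beside a median of 52.4% over all windows. A match is a description of letters and was not tested as a site. Only exact letters in these 250 bases were searched, so an empty window does not show that a gene lacks such a site.

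**Figure D3:**
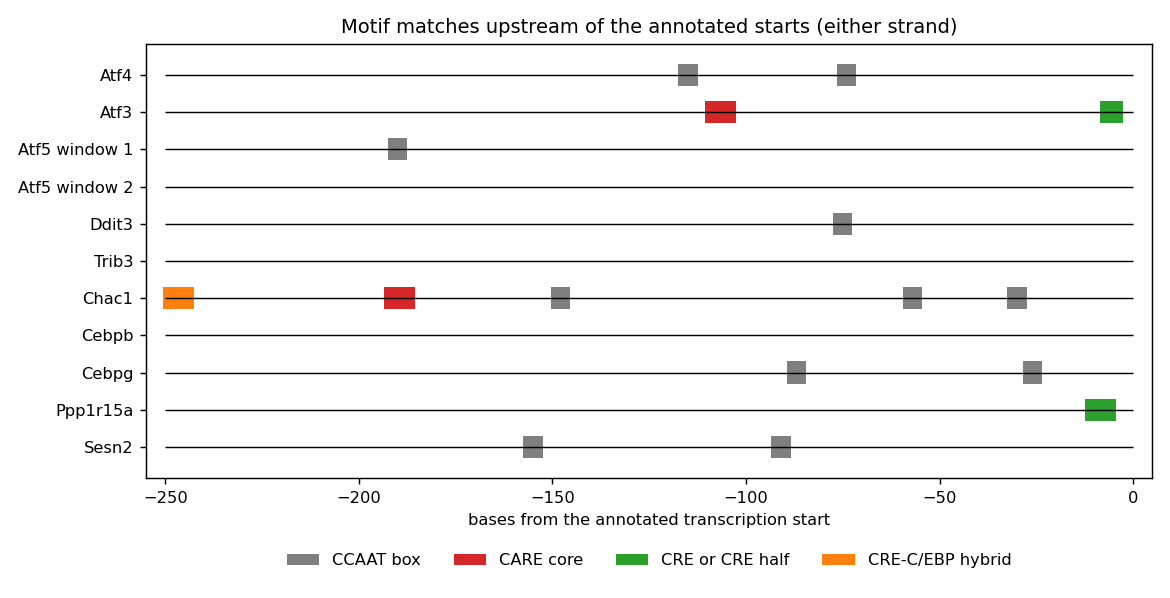
Positions of the motif matches on either strand in the 250 bases before each annotated start, 1 line per window. Chac1 has 5 matches, those of Ppp1r15a begin at most 12 bases before the start, and Atf3 has 1 match 110 and 1 match 8 bases before it; the lines of Trib3, Cebpb and the second Atf5 window are empty.

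Within a library, the ratio of a member to Atf4 does not depend on the scaling between libraries. The log2 ratio of Trib3 counts to Atf4 counts averaged -2.85 ± 0.03 at 96 h and -4.60 ± 0.25 at 0 h, so that Trib3 was 3.35 times higher relative to Atf4. For Atf3 the ratio was 3.05 times higher, for Ddit3 2.76 times, for Chac1 1.89 times and for Atf5 1.60 times. Relative to Atf4, Cebpb stood at 0.808 and Cebpg at 0.541 times its 0 h ratio. For these 7 no library of one group reached the range of the other (exact permutation p = 0.1 each, the smallest that 3 against 3 libraries can give, and 0.129 adjusted over 9 ratios), so none passes at 0.05. For Ppp1r15a (1.20 times, exact permutation p = 0.2) and Sesn2 (1.17 times, p = 0.3) the groups overlapped. By fold change 94.0% of tested genes lay below Atf4, so a lower ratio to Atf4, as for Cebpb and Cebpg, was common. The share of all genes without overlap in this ratio was not computed. Ddit3 was the steadiest at 96 h, with log2 ratios of -2.71, -2.70 and -2.73.

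**Figure D4:**
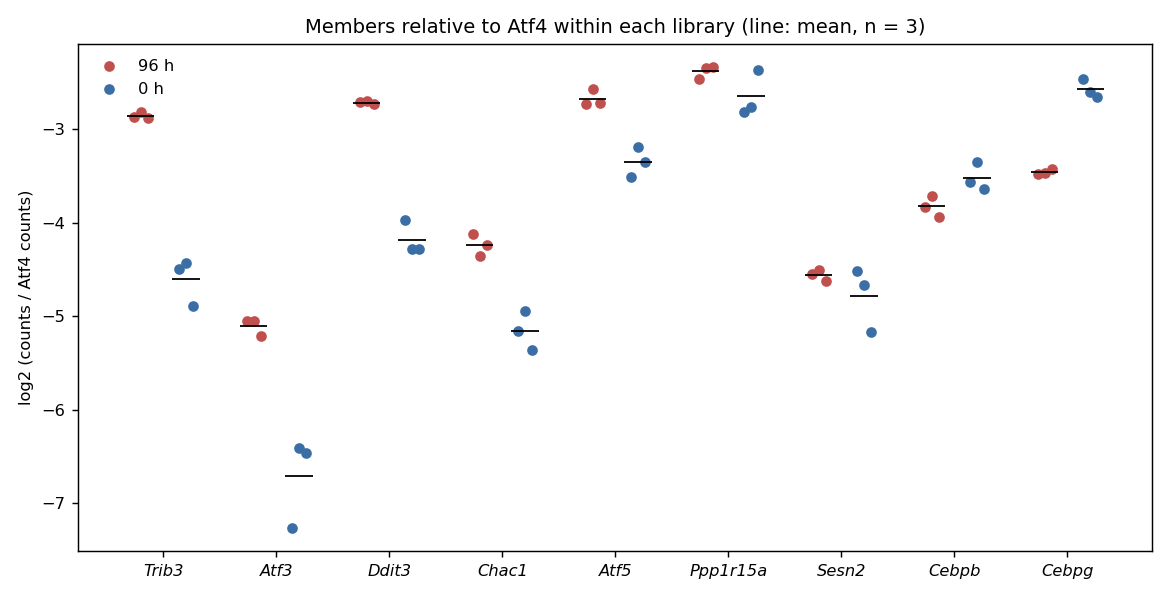
Log2 of each member's counts over Atf4's counts in the same library, 96 h left of 0 h within each gene, with a line at the mean of 3 libraries. Trib3, Atf3, Ddit3, Chac1 and Atf5 lie higher at 96 h, Cebpb and Cebpg lie lower, and Ppp1r15a and Sesn2 overlap.

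Between genes, levels were compared per length, as TMM-scaled CPM per kilobase of the longest coding transcript (GENCODE M21). At 96 h the order was Atf4 (363 ± 9.6), Ddit3 (107 ± 1.6), Atf5 (54.2 ± 2.2), Ppp1r15a (42.9 ± 2.4), Trib3 (42.8 ± 0.37), Cebpb (29.4 ± 1.5), Chac1 (20.3 ± 1.9), Cebpg (12.1 ± 0.48), Atf3 (9.19 ± 0.40) and Sesn2 (7.65 ± 0.14). Of neighbours in that order, Ppp1r15a and Trib3 alone overlapped. At 0 h Atf4 (117 ± 4.3) also came first, and Ddit3 (12.5 ± 1.2), Cebpb (11.7 ± 1.2), Ppp1r15a (11.6 ± 2.4) and Atf5 (11.0 ± 1.4) overlapped each with the next. Cebpg (7.20 ± 0.25), Trib3 (4.11 ± 0.57), Chac1 (3.46 ± 0.46), Sesn2 (2.13 ± 0.41) and Atf3 (0.997 ± 0.32) followed, with Trib3 and Chac1 overlapping. Per length, Ddit3 thus stood at 29.5% of the Atf4 level at 96 h and 10.7% at 0 h. These orders depend on the transcript length taken for each gene. In mean CPM at 96 h, not divided by length, Ddit3 (95.5) lay below Ppp1r15a (121) and Atf5 (98.4). Cebpg (57.1) then lay above Cebpb (44.3), and Atf4 (626) still came first.

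The relatives of the feedback genes had smaller fold changes than Trib3, Ppp1r15a, Chac1 and Sesn2. The highest relative, Sesn3, was close to the lowest of all members, Cebpg (log2 fold change 0.75 ± 0.06, SE). Of 6 relatives, 3 rose and 1 fell (28.7% of all tested genes rose and 28.8% fell). Trib1, a related pseudokinase, rose (log2 fold change 0.56 ± 0.12, edgeR adjusted p = 0.00103), and Sesn3, a sestrin under FOXO control, rose (0.74 ± 0.15, adjusted p = 6.95e-04). Trib2 passed narrowly (0.14 ± 0.06, adjusted p = 0.0380), a call that ended when any one of 96 h replicates 1 and 2 and 0 h replicates 1, 2 and 3 was left out (adjusted p = 0.198, 0.0748, 0.0760, 0.186 and 0.0501) and with DESeq2 (0.133). With library size only its value was -0.11 (adjusted p = 0.138). Ppp1r15b, the constitutive counterpart of GADD34 in eIF2 dephosphorylation, fell (-0.17 ± 0.06, edgeR adjusted p = 0.0178). That call ended without 96 h replicate 1 (0.0542) or 0 h replicate 3 (0.0530) and with upper-quartile factors (0.190). Sesn1 (0.32 ± 0.16, adjusted p = 0.113, but 0.0171 without 96 h replicate 2) and Chac2 (0.34 ± 0.25, adjusted p = 0.257) did not pass.

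Per length, the inducible member took a larger part of each small family at 96 h. Trib3 made up 54.6%, 55.2% and 56.3% of the 3 tribbles genes at 96 h, against 12.1%, 14.2% and 10.1% at 0 h. Ppp1r15a made up 73.9% ± 0.79 of itself and Ppp1r15b at 96 h and 40.2% ± 3.9 at 0 h. For Chac1 the share of itself and Chac2 was 87.8% ± 2.5 at 96 h and 61.3% ± 2.4 at 0 h. Sesn2 made up 65.0% ± 4.1 of the 3 sestrins at 96 h and 40.9% ± 6.8 at 0 h. No groups overlapped in these 4 shares (exact permutation p = 0.1 each, the smallest possible). How often shares of other gene families separate in this way was not computed. In CPM, 32.4% of tested genes had all 96 h libraries above all 0 h libraries. The shares restate the fold changes of the members and their relatives given above. The shares depend on the transcript length taken for each gene. In mean CPM at 96 h, not divided by length, Trib3 (86.6) lay below Trib2 (120). Ppp1r15a (121), Chac1 (33.3) and Sesn2 (26.6) lay above each of their relatives.

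Upstream of Atf4, mRNAs of the eIF2 cycle were lower more often than higher. Of 22 tested, 3 rose and 14 fell (28.7% of all tested genes rose and 28.8% fell). The median log2 fold change was -0.30. With library size only 0 rose and 17 fell, where 2409 of all 13705 tested genes rose and 5849 fell. Of the 4 kinases, Eif2ak3, which encodes the ER stress sensor PERK, rose (49.4 ± 1.9 CPM at 96 h and 37.1 ± 2.6 CPM at 0 h, log2 fold change 0.41 ± 0.07, edgeR adjusted p = 1.56e-04). Eif2ak4, the amino acid sensor GCN2, rose by less (0.28 ± 0.07, adjusted p = 0.00548). Both calls ended with library size only (0.16 and 0.03, adjusted p = 0.116 and 0.784). Eif2ak1, the haem-regulated kinase HRI, fell (-0.38 ± 0.08, adjusted p = 0.00100). Eif2ak2, the double-stranded RNA sensor PKR, fell (-0.30 ± 0.10, adjusted p = 0.0250), a call that ended without 96 h replicate 1 or 3 or 0 h replicate 3 (adjusted p = 0.0520, 0.103 and 0.102) and with upper-quartile factors (0.0925). Impact, an inhibitor of GCN2 activation, rose (0.32 ± 0.06, but 0.07 with library size only, adjusted p = 0.444). The falls with the smallest adjusted p were those of the phosphatase catalytic subunit gene Ppp1cc (-0.86 ± 0.07) and the eIF2 subunit genes Eif2s3x (-0.54 ± 0.05) and Eif2s1 (-0.54 ± 0.05).

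Downstream, 33 of 35 tested genes of a list of other widely used ATF4 or CHOP targets rose and none fell (edgeR). Of all tested genes, 28.7% rose and 28.8% fell. The list was chosen with earlier results of these data known, so this contrast is a description. DESeq2 and limma-voom also gave 0 targets lower, as did an unadjusted edgeR p under 0.05, and library size only gave 1. The median log2 fold change of these targets was 1.37. Slc7a11 and Slc3a2, the subunits of the cystine and glutamate exchanger, rose 22.5-fold and 2.83-fold, and Psph, the last enzyme of serine synthesis, 4.86-fold. The other 2, named after their values were seen, were Aars1, alanyl-tRNA synthetase (357 CPM at 96 h and 359 CPM at 0 h, log2 fold change -0.01, adjusted p = 0.861), and Bcl2l11, the death gene BIM (10.0 CPM at 96 h and 9.17 CPM at 0 h, log2 fold change 0.13, adjusted p = 0.416). Of 20 tested genes of the IRE1 and ATF6 arms of the ER stress response, 15 rose (75%) and 2 fell (10%). Their median log2 fold change was 0.33. With library size only 7 rose and 4 fell, where 2409 of all 13705 tested genes rose and 5849 fell. Atf6 (1.28 ± 0.07), Sel1l (0.88 ± 0.05) and Herpud1 (1.40 ± 0.09), a regulator, a component and an adaptor of ER quality control, rose, and the ER proteins Creld2 (-0.56 ± 0.10) and Dnajb11 (-0.20 ± 0.05) fell. The call of Dnajb11 ended with upper-quartile factors (adjusted p = 0.0753).

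Other bZIP factors are of the family to which 6 members belong. Of 30 tested, 12 rose (40%) and 7 fell (23.3%), beside 28.7% and 28.8% of all tested genes. Their median log2 fold change was 0.24. With library size only 9 rose and 11 fell, where 2409 of all 13705 tested genes rose and 5849 fell. Nfil3, a repressor of circadian output genes, rose 3.03-fold, Nfe2l1, a regulator of proteasome genes, 1.65-fold, and Bach2, a repressor best known in lymphocytes, 2.40-fold. The CREB relatives Atf7 (-0.47 ± 0.06) and Atf1 (-0.49 ± 0.07) fell. Around Sesn2, 4 of 21 tested GATOR, CASTOR and TSC regulators of mTORC1 rose (19.0%) and 5 fell (23.8%). Both shares lay below those of all tested genes. The median log2 fold change of these regulators was -0.05 (2 rose and 10 fell with library size only). Ddit4, an mTORC1 inhibitor acting through TSC that is also in the list of other targets, rose 3.07-fold. Castor2, an arginine sensor relative, rose 1.98-fold. Wdr59 of GATOR2 rose 1.32-fold, a call that ended with library size only (edgeR adjusted p = 0.305). Seh1l (-0.64 ± 0.07), a GATOR2 and nuclear pore protein, Itfg2 (-0.52 ± 0.10) of KICSTOR and the GTPase gene Rragd (-0.31 ± 0.07) fell.

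**Figure D5:**
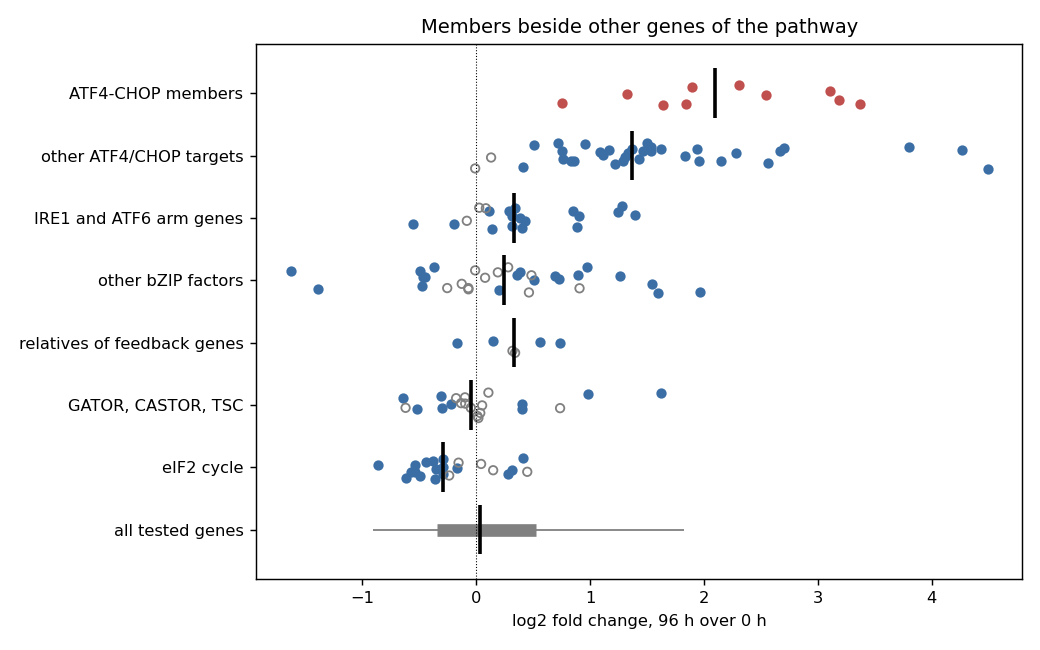
Log2 fold change, 96 h over 0 h, of each tested gene in 7 lists (filled: adjusted p under 0.05; open: not passed), with a line at each list's median. For all tested genes the thick bar spans the middle 50 in 100 genes and the thin line the 5th to the 95th percentile (-0.91 to 1.82). The members' median is 2.10, that of the other targets 1.37 and that of the eIF2 cycle -0.30.

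Of genes outside the set, the 5 whose log2 CPM profile over the 6 libraries lay nearest to the members' median profile were Tnfaip2, Dnah1, Psph, Extl1 and Plxnc1, out of 9697 candidates with at least 5 CPM in a group. Their Euclidean distances were 0.191, 0.219, 0.244, 0.257 and 0.296. Their fold changes ran from 4.05 (Plxnc1) to 4.86 (Psph). Of the members, Atf5 lay nearest to that profile (0.255) and Cebpg farthest (1.79). With libraries in 2 groups, a near profile is mainly a like fold change.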

How the data were processed

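Total RNA was depleted of ribosomal RNA and stranded libraries (Takara SMARTer v2 Pico) were sequenced on a Singular Genomics G4 instrument in paired-end mode, per the labels' protocols. The deposited table holds estimated counts per gene, not normalised. The submitters' processing notes name Salmon 1.10.1, DESeq2 1.52.0, FastQC 0.12.1 and build mm39. What each did, the annotation and the strand setting are not given in those sources. Overlapping or related genes can share estimated reads. The estimates of Cebpb, Ddit3, Ppp1r15a and Sesn2 were not whole numbers in every library (tolerance 0). For Ddit3 (238.999 and 204.999 in 0 h replicates 1 and 3) and Ppp1r15a (696.999 in 0 h replicate 2) the departure was minute. It was larger for Cebpb (such as 317.585 in 0 h replicate 1) and Sesn2 (110.959 in 0 h replicate 3).

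Counts were rounded and tested with edgeR 4.0.16 (R 4.3.3): filterByExpr left 13705 genes, TMM scaling, quasi-likelihood F test, Benjamini-Hochberg adjusted p under 0.05, no block. The SE is the log2 fold change over the square root of F. Replicate libraries differed by more than sampling noise (chi-square per degree of freedom 6.37 to 13.5). Whether replicates came from separate cultures is not described further, so p-values measure the spread between these libraries. Members and lists were chosen with earlier results of these data known. All members are named; from other lists, the 3 higher and 3 lower genes with the smallest adjusted p, all relatives and the 4 eIF2 kinases. A gene that this rule takes is not reported here. Alternatives were other scalings, filters, DESeq2 1.42.0, limma-voom 3.58.1, stricter thresholds, gene subsets, a replicate block and leaving out each library.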

Additional observations from a re-analysis of the deposited data

How the results depend on the processing

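All 10 members stayed higher and past the threshold under all 18 alternatives, with the highest adjusted p (0.0144) for Cebpg against a 1.5-fold change. With library size only, members' log2 fold changes ran from 0.50 to 3.12. That scaling gave 2409 genes higher and 5849 lower (3927 and 3942 with TMM). In the lists it gave 0 eIF2 genes higher, 1 other target lower, and 7 ER genes higher and 4 lower. It also gave 11 bZIP genes lower, and 2 mTORC1 genes higher and 10 lower. It put Trib2 at -0.11 (adjusted p = 0.138). The cause was not tested. The test against a 1.5-fold change, stricter by construction, left 1515 genes higher and 852 lower, and as higher and lower list genes 0 and 1 of the eIF2 cycle, 6 and 0 of the ER arms, 6 and 2 bZIP genes, 0 and 0 relatives, and 2 and 0 mTORC1 genes. Upper-quartile factors left 1 ER gene lower and 0 relatives lower. The fall of 1 relative, Ppp1r15b, was also lost with a minimum of 5 CPM and at an adjusted p under 0.01 (0 each), and leaving out 1 library gave 0 to 1. The other 262 of 288 alternative counts stayed within 1.5 times, and all 63 alternative ratios to Atf4 kept their direction. The fit on protein-coding genes alone was chosen after seeing the data.

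The replicate numbers did not pair the libraries: deviations of same-numbered libraries correlated at -0.0136, 0.0144 and -0.00496. With a replicate block, all 10 members passed, 3854 genes were higher and 3858 lower. Depth was lowest for Atf3 among the members, with 24 to 55 counts per library at 0 h.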

Other observations

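Of the other widely used ATF4 or CHOP targets, 3 were too scarce for the test. Fgf21, a stress hormone gene, had 28 counts over the 3 libraries at 96 h and 2 at 0 h. Vldlr, a lipoprotein receptor gene, summed to 2 counts at 96 h, against 0 at 0 h. Tnfrsf10b, the death receptor gene that CHOP induces, summed to 2 counts at 96 h, against 3 at 0 h. From the list of the IRE1 and ATF6 arms, the ER degradation gene Derl3 was also too scarce, with 40 counts at 96 h and 8 at 0 h. In contrast, the stress hormone gene Gdf15 had 16.1 CPM at 96 h and 2.75 CPM at 0 h, and Bbc3, the death gene PUMA, 7.32 CPM at 96 h and 2.53 CPM at 0 h, both past the edgeR test. These genes were named after their values were seen.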
